A study of Mus musculus with 2 samples.

Results

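Matrix metalloproteinases (MMPs), ADAMs and ADAMTS proteins are zinc-dependent proteinases that act outside the cell or at its surface, and the tissue inhibitors of metalloproteinases (TIMPs) bind and block their active sites. The genes examined were the 80 of 29126 entries in the deposited table whose symbol names an Mmp, Adam, Adamts, Adamtsl or Timp gene. They comprise 23 Mmp, 29 Adam, 19 Adamts, 5 Adamtsl and 4 Timp entries, and each entry carries 1 gene symbol. The rule matches names and uses no measured value.

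The values are from strand-specific mRNA-seq of 1 library of Dnmt1+/+ and 1 library of Dnmt1-/- mouse embryonic fibroblasts (MEFs), cultured connective tissue cells taken from embryos. The cells called Dnmt1-/- carry a hypomorphic Dnmt1 allele on both chromosomes, and Dnmt1 encodes the enzyme that maintains DNA methylation when DNA is copied. MEFs of both genotypes also lack p53, so the Dnmt1+/+ cells are trp53-/- controls and not wild-type at every locus. The strain is given as unknown. Each genotype was 1 cell line, and whether a line is a single clone is not given in the sources used here. Since each genotype has 1 library, differences could not be checked against replicates, and no p-value is given. The effect of the Dnmt1 genotype cannot be told apart from other differences between the lines. The lines differed, for instance, in Xist, the RNA of the inactive X chromosome, and in the Y-linked gene Ddx3y, with values given below. This holds for every member.

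The level of a gene is its RPKM, reads per length of transcript and per mapped read of the library, as the authors computed it. Changes are given as log2(RPKM + 0.1) in Dnmt1-/- minus that in Dnmt1+/+, a scale that understates changes of low genes. Here 2-fold always means a difference of 1 on this scale. Genes were kept where Cuffdiff gave the status OK (enough reads to quantify) and either library reached 1 RPKM, which held for 32 of the 80 entries and for 11244 genes with a symbol in all. Across these 11244 genes the median change was -0.14, and in Dnmt1-/- MEFs 8.47% exceeded a 2-fold increase and 10.9% a 2-fold decrease. RPKM values carry no read counts, so counting error cannot be given for a gene. Dnmt1 itself was at 65.2 RPKM in Dnmt1+/+ and 14.5 in Dnmt1-/- MEFs, in the direction of the labels. Of 12 fibroblast markers, 11 were kept, with Vim at 2269 and 1873 RPKM and Col1a1 at 1448 and 898, while Fap was at 0.0315 and 0 and Thy1 was at 4.84 and 0.129. Of the 11, 2 were called higher, S100a4 at 289.6 and 1262 RPKM and Pdgfra at 6.95 and 18.7, and 3 were called lower, Thy1, Fn1 and Col1a2. Of 7 leukocyte markers, Ptprc and Emr1 were listed at 0 in both libraries, and Itgam was at 0 and 0.0186 RPKM and Lyz2 at 0.0149 and 0.0434. By contrast, Csf1r was at 0.0702 and 6.08 RPKM, Cd68 at 0.596 and 3.63 and Cd14 at 1.51 and 3.23. The summed level of these 7 was 2.19 RPKM in Dnmt1+/+ and 13.0 in Dnmt1-/- MEFs, and its part in the values below was not tested. The 6 epithelial markers summed to 0.363 and 2.19 RPKM, the 4 endothelial ones to 0.461 and 0.679, and the 5 germ cell ones to 0.701 and 0.322. The epithelial markers were split. Krt14 was at 0.0349 and 1.46 RPKM, Krt18 at 0.0358 and 0.441 and Krt8 at 0 and 0.216. In the other direction, Epcam was at 0.0466 and 0.00921, Cdh1 at 0.203 and 0.0700 and Krt5 at 0.0425 and 0. Of the 4 neuronal markers Snap25 and Rbfox3 were listed at 0 in both libraries, and Tubb3 was at 16.9 and 12.9 RPKM.

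In tissue, MMPs degrade collagens and other matrix proteins, and fibroblasts are a main source of them. ADAMs are membrane proteins, many of which shed growth factors, cytokines and receptors from the cell surface. ADAMTS proteinases are secreted, and they cleave proteoglycans such as versican and aggrecan or trim procollagens. ADAMTS-like proteins resemble them but lack the proteinase domain. The mammalian TIMPs differ in their targets: TIMP-1 is a poor inhibitor of membrane-type MMPs, TIMP-2 also takes part in the activation of pro-MMP-2 by MMP-14, and TIMP-3 is held in the matrix and inhibits ADAM-17 and aggrecanases as well.

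The 3 Timp genes expressed above 1 RPKM were higher in Dnmt1-/- MEFs, most of the expressed Adamts genes were lower, and the most abundant Mmp and Adam genes changed less than 2-fold. Of the 32 members kept, 7 (21.9%) were called as more than 2-fold higher in Dnmt1-/- MEFs, against 8.47% of all genes kept, and 11 (34.4%) were more than 2-fold lower, against 10.9%. The remaining 14 changed less than 2-fold on the log2(RPKM + 0.1) scale. Some called members reached the minimum of 1 RPKM in the higher library only, which were Mmp3 among the 7 and Mmp16, Mmp23, Adamts7, Adamts9, Adamts17 and Adamtsl1, or 6, among the 11. The median change of the 32 was -0.28, beside -0.14 for all genes kept, and since the members split between both directions this median describes few of them. It does not hold in direction without the filter on low RPKM, where the 55 members with status OK gave a median of 0.072, with 12 members higher and 14 lower. RNA was measured in bulk, so fewer cells that express a gene and less RNA per cell cannot be told apart.

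**Figure D1:**
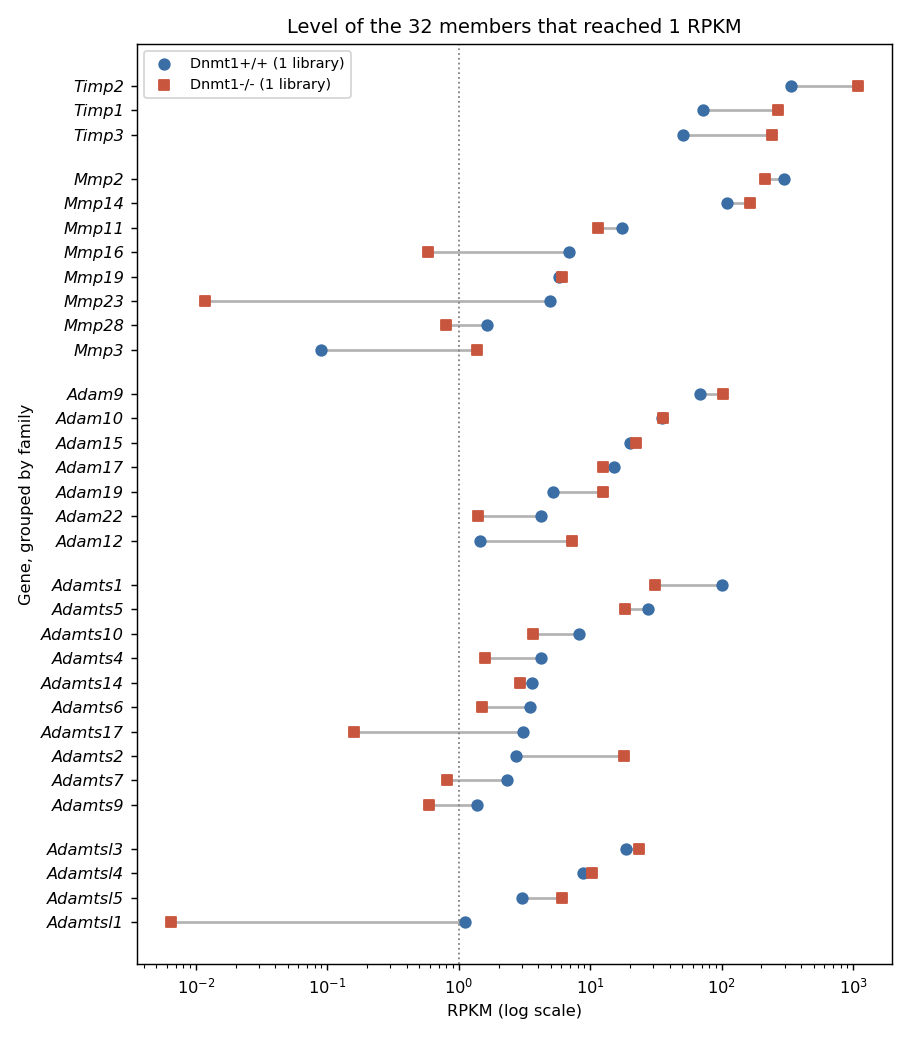
RPKM of the 32 kept members in the Dnmt1+/+ library (blue circles) and the Dnmt1-/- library (red squares), on a log axis, grouped by family, with a dotted line at 1 RPKM. Timp1, Timp2 and Timp3 lie to the right in Dnmt1-/-, and 9 of the 10 Adamts genes lie to the left.

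The promoters of the 4 Timp genes are shown first, as Timp1, Timp2 and Timp3 were higher together and as CpG, the dinucleotide that Dnmt1 keeps methylated, is unevenly spread among them. The sequences are the 150 bases before the annotated start in RefSeq on GRCm38.p6, written 5′ to 3′ on the gene's own strand, with each CpG in capitals. They lie at chrX:20870016-20870165 on the plus strand, chr11:118355412-118355561 on the minus strand, chr10:86300262-86300411 on the plus strand and chr6:115252206-115252355 on the minus strand.
Timp1: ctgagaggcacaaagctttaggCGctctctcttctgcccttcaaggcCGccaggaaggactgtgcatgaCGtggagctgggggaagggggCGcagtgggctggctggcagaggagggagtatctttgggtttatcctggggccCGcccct
Timp2: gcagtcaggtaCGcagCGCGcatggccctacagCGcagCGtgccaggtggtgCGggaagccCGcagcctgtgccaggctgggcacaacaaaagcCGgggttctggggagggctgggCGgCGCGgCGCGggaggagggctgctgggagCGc
Timp3: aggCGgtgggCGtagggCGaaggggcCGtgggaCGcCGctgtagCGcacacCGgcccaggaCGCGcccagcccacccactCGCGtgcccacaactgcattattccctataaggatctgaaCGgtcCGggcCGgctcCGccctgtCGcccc
Timp4: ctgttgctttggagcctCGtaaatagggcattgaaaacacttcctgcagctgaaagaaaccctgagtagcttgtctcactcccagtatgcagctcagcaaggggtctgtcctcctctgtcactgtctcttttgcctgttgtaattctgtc

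These stretches hold 5 CpG for Timp1, 14 for Timp2, 17 for Timp3 and 1 for Timp4. Over the 250 bases before the start, Timp2 had 21 CpG, Timp3 had 18, Timp1 had 6 and Timp4 had 2, beside a median of 6 over the 32851 promoter windows in the RefSeq table. The 3 genes with higher RNA thus had promoters of average and of high CpG number. High numbers also occurred in members called lower, as in Adamts9 with 22 and Adam22 with 17. Adamtsl3, within 2-fold, had 39, and Adamts2, called higher, had 34. Whether CpG number goes with the change in RNA was not tested. DNA methylation at these promoters was not analysed here.

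Timp2 had the highest level of all 80 entries. It was at 337.4 RPKM in Dnmt1+/+ and 1087 in Dnmt1-/- MEFs (log2 change 1.69). Among the 11244 genes kept, it ranked 137 by RPKM in Dnmt1+/+ and 23 in Dnmt1-/-. The gene lies on the minus strand of chromosome 11 of mm9, from 118162383 to 118217054. Timp1 was at 72.4 RPKM in Dnmt1+/+ and 265.8 in Dnmt1-/- MEFs (log2 change 1.87). It is X-linked, from 20447292 to 20451861, and the lines also differed in Xist, the RNA of the inactive X chromosome, at 0.00648 and 37.0 RPKM, and in the Y-linked gene Ddx3y, at 13.9 and 0. The part of this difference in the Timp1 value was not tested.

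Timp3 showed the largest change of the 3, from 51.0 to 240.2 RPKM, a log2 change of 2.23. Its rank went from 1442 to 194. Timp3 lies on chromosome 10, from 85763117 to 85812251, inside the gene Syn3 on the opposite strand, and some annotated exons overlap. Whether strand was used in assigning reads is not stated, and Syn3 was at 0.136 and 0.105 RPKM, far below Timp3. Timp4 was listed at 0 in Dnmt1+/+ and was at 0.130 in Dnmt1-/- MEFs, under the minimum of 1 RPKM, so it was not compared. The order of the 4 levels was Timp2, Timp1, Timp3 and Timp4 in both libraries.

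Summed over the family, Timp genes reached 460.8 RPKM in Dnmt1+/+ and 1593 in Dnmt1-/- MEFs. Summed Mmp RPKM was 446.3 and 401.0. The ratio of the sums was therefore 1.03 in Dnmt1+/+ and 3.97 in Dnmt1-/- MEFs, 3.85-fold higher, and a ratio within a library does not depend on how the libraries were scaled. Single genes dominate these sums, with Timp2 giving 73.2% of Timp RPKM in Dnmt1+/+ and 68.2% in Dnmt1-/-. The ratio of the sums was 4.57-fold higher without Timp2 and 2.74-fold higher without Mmp2.

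**Figure D2:**
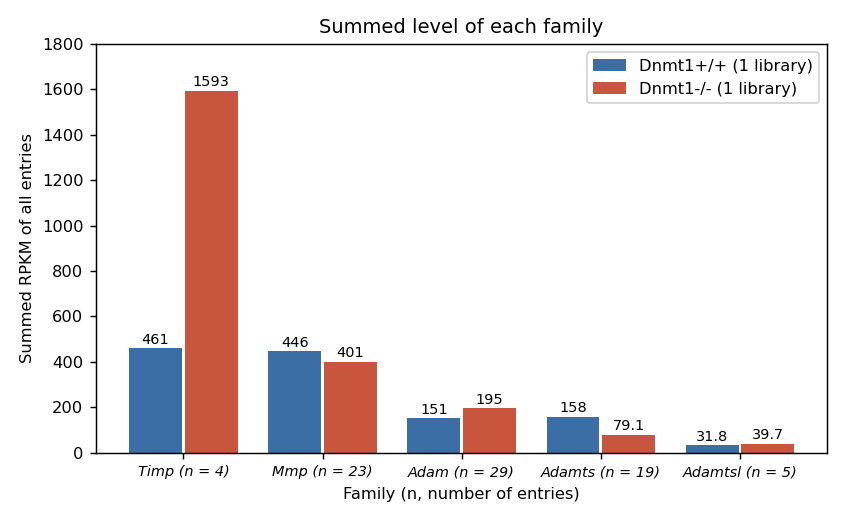
Summed RPKM of all entries of each family in the Dnmt1+/+ library (blue bars) and the Dnmt1-/- library (red bars), with the number of entries in brackets and no error bars, as there is 1 library per genotype. The Timp bar is 1593 in Dnmt1-/- against 460.8 in Dnmt1+/+, and the Adamts bar is 79.1 against 157.6.

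Among the Mmp genes, the level was concentrated in Mmp2, which encodes gelatinase A, and Mmp14, which encodes the membrane-type proteinase that activates it. Mmp2 was at 298.2 RPKM in Dnmt1+/+ and 214.0 in Dnmt1-/- MEFs (log2 change -0.48). Mmp14 was at 109.8 and 164.0, a log2 change of 0.58. Both stayed within 2-fold, in opposite directions, and together they gave 91.4% of Mmp RPKM in Dnmt1+/+ and 94.3% in Dnmt1-/-. Mmp14 RPKM was 0.368 times Mmp2 RPKM in Dnmt1+/+ and 0.767 times in Dnmt1-/-. For the 3 genes that take part in pro-MMP-2 activation, Timp2 was at 3.07 times Mmp14 RPKM in Dnmt1+/+ and 6.63 times in Dnmt1-/-, and at 1.13 and 5.08 times Mmp2.

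The Mmp genes that were more than 2-fold lower were expressed at a few RPKM in Dnmt1+/+. Mmp23, which encodes an unusual membrane-anchored MMP without a hemopexin domain, was at 4.91 RPKM in Dnmt1+/+ and 0.0118 in Dnmt1-/- MEFs (log2 change -5.49). This was the largest change of the 32 members in either direction. Mmp16, encoding another membrane-type MMP, went from 6.82 to 0.581 RPKM, a log2 change of -3.34. Both lie on chromosome 4, but far apart, Mmp16 from 17780040 to 18046292 and Mmp23 from 155024764 to 155027493.

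Mmp11, Mmp19 and Mmp28 were not called. Mmp11, stromelysin-3, was at 17.5 and 11.3 RPKM, and Mmp19 at 5.81 and 6.11. Mmp28, or epilysin, was at 1.65 and 0.802, a ratio of 2.05 in plain RPKM but a log2 change of -0.95 with the pseudocount, just short of the threshold. In the annotation, exons of Mmp11, Mmp19 and Mmp28 overlap another gene, so their values are uncertain.

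Mmp3, stromelysin-1, was the single Mmp gene more than 2-fold higher. It was at 0.0896 RPKM in Dnmt1+/+ and 1.38 in Dnmt1-/- MEFs (log2 change 2.97), and it passed the minimum only through the Dnmt1-/- library. Mmp3 belongs to a cluster of 10 Mmp genes on chromosome 9, from 7272514 to 7699585. In Dnmt1+/+ MEFs 2 of the 10, Mmp3 and Mmp13, were above 0, and their RPKM sum was 0.0999. In Dnmt1-/- MEFs 4 were above 0, with a sum of 2.38. The collagenase gene Mmp13 was at 0.0103 and 0.747 RPKM. Mmp10 and Mmp27, both listed at 0 in Dnmt1+/+, were at 0.157 and 0.0997 in Dnmt1-/-. Of these 4 genes only Mmp3 was kept, while Mmp13, Mmp10 and Mmp27 remained under 1 RPKM. The log2 changes of these 3 were 2.94, 1.36 and 0.998. Without the filter on low RPKM, 9.92% of all genes were more than 2-fold higher. Mmp1a, Mmp1b, Mmp7, Mmp8, Mmp12 and Mmp20 were listed at 0 in both libraries. Mmp8 and Mmp12 encode the collagenase and the elastase of neutrophils and macrophages.

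**Figure D3:**
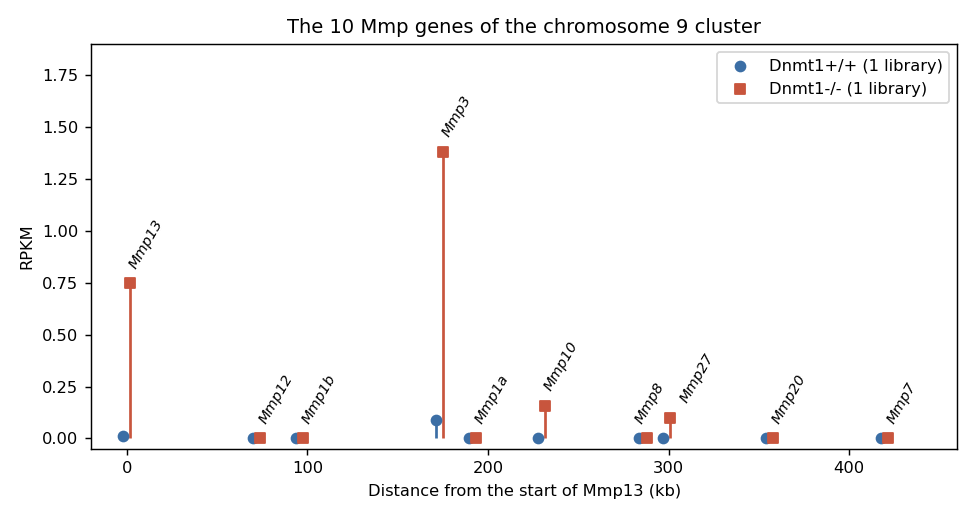
RPKM of the 10 Mmp genes of the chromosome 9 cluster, placed by the distance in kb of each gene's lower coordinate from that of Mmp13, in Dnmt1+/+ (blue circles) and Dnmt1-/- (red squares). Mmp3 at 1.38 and Mmp13 at 0.747 stand above the rest in Dnmt1-/-, and 6 genes are at 0 in both libraries.

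The promoters of the 4 cluster genes with RNA in Dnmt1-/- are given for their sequence motifs. AP-1, the dimer of Fos and Jun proteins, is a known regulator of several MMP genes, and its site was searched for as TGANTCA, which reads alike on both strands. The TATA box was searched for as TATAAA on both strands. Matches are in capitals in these 150 bases before the start, all on the plus strand of GRCm38.p6, at chr9:7272364-7272513, chr9:7445672-7445821, chr9:7502192-7502341 and chr9:7571246-7571395.
Mmp13: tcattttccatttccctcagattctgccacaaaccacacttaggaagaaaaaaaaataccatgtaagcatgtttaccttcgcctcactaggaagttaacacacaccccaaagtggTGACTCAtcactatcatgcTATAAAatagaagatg
Mmp3: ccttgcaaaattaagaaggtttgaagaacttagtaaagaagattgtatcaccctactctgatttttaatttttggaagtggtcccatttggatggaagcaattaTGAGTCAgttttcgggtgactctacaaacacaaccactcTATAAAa
Mmp10: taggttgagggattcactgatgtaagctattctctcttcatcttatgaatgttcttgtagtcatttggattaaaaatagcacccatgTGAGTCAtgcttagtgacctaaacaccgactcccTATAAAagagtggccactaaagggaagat
Mmp27: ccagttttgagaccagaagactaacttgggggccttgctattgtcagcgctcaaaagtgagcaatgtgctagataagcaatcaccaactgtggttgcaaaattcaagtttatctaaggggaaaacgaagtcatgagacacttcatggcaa

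In Mmp13 the AP-1 match began 35 bases and the TATAAA match 16 bases before the start. These distances were 46 and 7 bases for Mmp3 and 63 and 29 bases for Mmp10, and Mmp27 had neither motif in this window. Over the 250 bases before any annotated start, 8 of the 10 cluster genes held TGANTCA, against 6.75% of all windows, and 7 held TATAAA, against 12.4%. The same 7 held both in 1 window, against 1.22%. These are counts of genes, which have 12 windows together, set beside shares of windows, so the units differ. They include Mmp1a, Mmp1b, Mmp7 and Mmp20, which were listed at 0 in both libraries, so both genes with and without detected RNA held them. CpG was sparse in the cluster, with 0 to 7 in each window. A match describes letters only and does not show that a factor binds. Entries in the RefSeq promoter table matched 21 of the 32 kept members (65.6%), and a comparison of promoters over the whole set was void at that share.

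The remaining Mmp genes had low values. Mmp9, gelatinase B, was at 0.850 and 0.509 RPKM, and Mmp15 at 0.651 and 0.672. The membrane-type genes Mmp17 and Mmp24 were at 0.0499 and 0.0408 in Dnmt1+/+ and at 0.372 and 0.213 in Dnmt1-/-. Mmp25 was at 0.0201 and 0 RPKM, and Mmp21 was listed at 0 in both. None of the 15 Mmp entries that were not kept reached 1 RPKM.

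Among the Adam genes, those that encode widely expressed sheddases had steady values. Adam9 was the highest, at 68.1 RPKM in Dnmt1+/+ and 101.3 in Dnmt1-/- MEFs (log2 change 0.57). Adam10, which cleaves Notch and the amyloid precursor protein, was at 34.8 and 35.8. Adam17, the enzyme that releases tumour necrosis factor, was at 15.0 and 12.5, and Adam15 was at 20.1 and 22.2. None of these 4 passed 2-fold. In the annotation, exons of Adam15 and Adam17 overlap another gene, which for Adam17 is Iah1, at 16.0 and 10.5 RPKM, a level like its own.

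Of the Adam genes, Adam12 and Adam19 were the ones called higher, with more RNA in Dnmt1-/- MEFs. Adam12 went from 1.43 to 7.29 RPKM, a log2 change of 2.27. Adam19 went from 5.19 to 12.5, a log2 change of 1.26, the lowest among the members called higher. Adam12 is on chromosome 7, from 141074882 to 141423829, and Adam19 on chromosome 11, from 45868004 to 45960845, where its exons overlap antisense transcripts.

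Of the 3 somatic ADAMs without an active catalytic site, 1 gene was kept, and it was lower. Adam22, a receptor of the neuronal protein Lgi1, was at 4.18 RPKM in Dnmt1+/+ and 1.40 in Dnmt1-/- MEFs (log2 change -1.52). Its relative Adam23 was at 0.822 in Dnmt1+/+ and was listed at 0 in Dnmt1-/-, under the minimum of 1 RPKM. Adam11, the other gene of this kind, was at 0.146 and 0.156, without such a difference.

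Adam genes known for expression in testis, epididymis or sperm were close to silent in both libraries. Of 17 such entries none was kept and 13 were listed at 0 in both libraries. The others were Adam5 at 0.304 and 0.555 RPKM, Adam32 at 0.131 and 0.279, Adam21 at 0.0500 and 0.0701, and Adam30 at 0 and 0.0164. Adam5 and Adam32 lie in a row with Adam9 on chromosome 8, which was at 68.1 and 101.3 RPKM. Of the 12 Adam genes on this chromosome 9 were listed at 0 in both. The remaining genes were under the minimum, with Adam8 at 0.454 and 0.735 RPKM, Adam33 at 0.0105 and 0.0343, and Adam28 listed at 0 in both.

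Adamts genes had mostly lower values in Dnmt1-/- MEFs. Of the 10 kept, 7 were more than 2-fold lower, against 10.9% of all genes kept, and 1 was that much higher, against 8.47%. The other 2 had log2 changes of -0.58 and -0.29. Among the 7, Adamts7, Adamts9 and Adamts17 reached 1 RPKM in Dnmt1+/+ only. With a pseudocount of 1 RPKM in place of 0.1, Adamts6, Adamts7, Adamts9 and Adamts10 were no longer called. This left 3 of the 10 lower, against 7.12% of all genes kept. The median change of the 10 was -1.16 with the pseudocount of 0.1. All Adamts genes, kept or not, summed to 157.6 RPKM in Dnmt1+/+ and 79.1 in Dnmt1-/- MEFs.

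**Figure D4:**
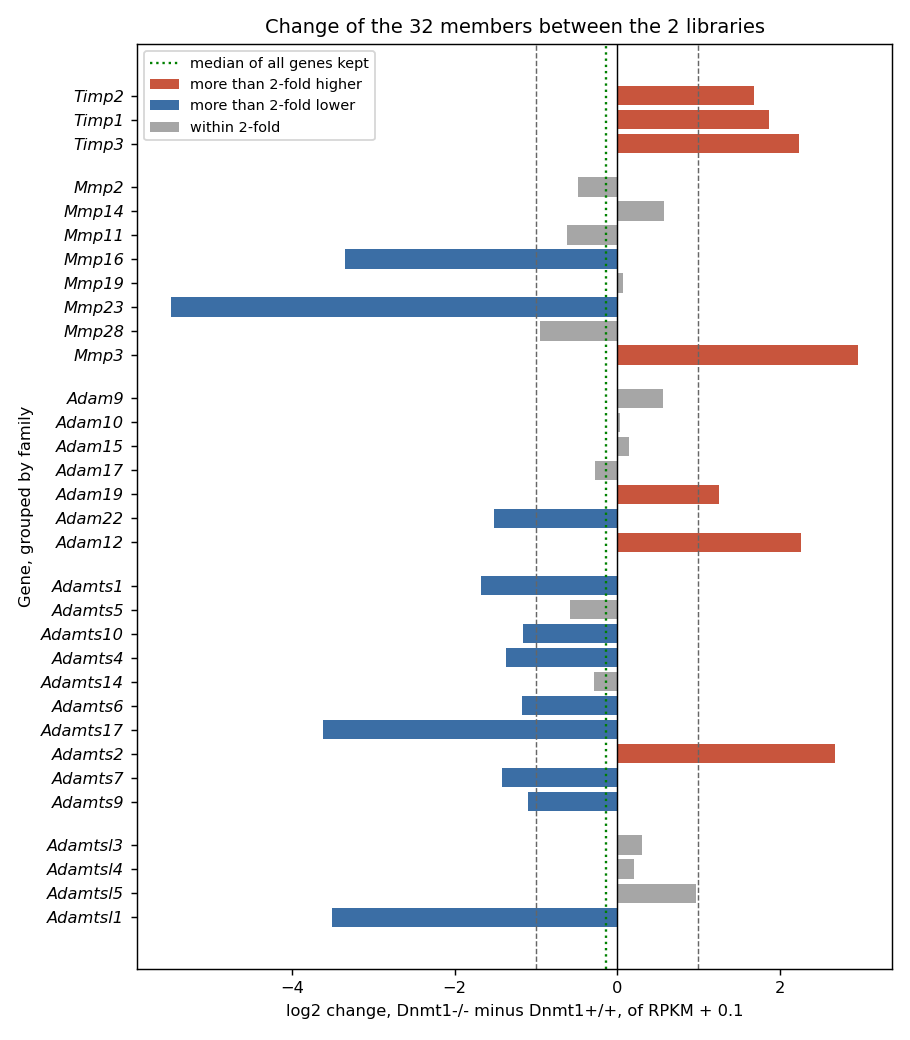
Change of the 32 kept members, as log2(RPKM + 0.1) in Dnmt1-/- minus Dnmt1+/+, with dashed lines at 2-fold in each direction and a dotted line at the median of all genes kept, -0.14. Red bars are more than 2-fold higher (7 genes), blue bars more than 2-fold lower (11 genes) and grey bars within 2-fold (14 genes).

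The proteoglycan-cleaving group held the most abundant Adamts genes. Adamts1, which cleaves versican and aggrecan, was at 99.7 RPKM in Dnmt1+/+ and 31.1 in Dnmt1-/- MEFs (log2 change -1.68), and its rank went from 630 to 2449. Adamts5, a main aggrecanase, was at 27.5 and 18.4, a log2 change of -0.58. These genes are neighbours on chromosome 16, with 55.1 kb between them, and the ratio of Adamts1 to Adamts5 RPKM was 3.62 in Dnmt1+/+ and 1.69 in Dnmt1-/-. The other aggrecanase, Adamts4, went from 4.22 to 1.57 RPKM, a log2 change of -1.37. Adamts9, which cleaves versican, went from 1.37 to 0.591, a log2 change of -1.09, the smallest among the members called lower. It no longer passed 2-fold when changes were centred on the median of all genes (-0.95), and exons of other annotated genes overlap it. Adamts8, Adamts15 and Adamts20 were at 0.0119 RPKM or less in each library. The ratio of Timp3 to the summed RPKM of the 7 genes of this group was 0.384 in Dnmt1+/+ and 4.65 in Dnmt1-/- MEFs.

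Procollagen N-propeptidases, which trim the amino end of fibrillar procollagens, differed from each other. Adamts2 was the single Adamts gene more than 2-fold higher, from 2.73 RPKM in Dnmt1+/+ to 18.0 in Dnmt1-/- MEFs (log2 change 2.68). It lies on chromosome 11, from 50415586 to 50621075. Adamts14 was at 3.57 and 2.90, and Adamts3 was at 0.183 in Dnmt1+/+ and listed at 0 in Dnmt1-/-. In both libraries the summed level of the group came mainly from Adamts2 and Adamts14.

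The genes tied to fibrillin microfibrils and to Weill-Marchesani syndrome, Adamts10 and Adamts17, were both lower. Adamts17 went from 3.10 to 0.160 RPKM, a log2 change of -3.62, and Adamts10 from 8.23 to 3.64, a log2 change of -1.16. Adamts6, a close relative of Adamts10, went from 3.48 to 1.49, a log2 change of -1.17. Adamts7, which cleaves cartilage oligomeric matrix protein, went from 2.31 to 0.806, a log2 change of -1.41, and its exons overlap Tbc1d2b, at 8.67 and 6.28 RPKM. Adamts12, the other gene of that kind, was at 0.985 and 0.229, just under the minimum. Adamts16 was at 0.0878 and 0.161 RPKM and Adamts18 at 0.0280 and 0.0213, while Adamts13 and Adamts19 were listed at 0 in both.

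Adamtsl genes showed 1 lower gene. Adamtsl1 was at 1.12 RPKM in Dnmt1+/+ and 0.00648 in Dnmt1-/- MEFs (log2 change -3.51), and it was kept only through the Dnmt1+/+ library. Adamtsl3, the most abundant, was at 18.8 and 23.3, and Adamtsl4, known for its part in lens suspension, at 8.84 and 10.2. Adamtsl5 was at 3.03 and 6.03, a log2 change of 0.97, just under the threshold, and it passed 2-fold under the same centring. Adamtsl2 was at 0.0823 and 0.153 RPKM.

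Genes that act on these enzymes were examined as a list of 33, of which 20 were kept. Of the 20, 4 were higher and 2 lower in Dnmt1-/- MEFs by more than 2-fold, beside 8.47% and 10.9% of all genes kept. The plasminogen system, in which plasmin activates several pro-MMPs, held 3 of the 4. Plau, the urokinase gene, went from 15.2 RPKM in Dnmt1+/+ to 32.0 in Dnmt1-/- MEFs, a log2 change of 1.07, and the gene of its receptor, Plaur, from 11.5 to 29.5, a log2 change of 1.35. Serpinb2, which encodes an inhibitor of urokinase, went from 0.0371 to 3.35, a log2 change of 4.65. The genes of a proteinase, its receptor and an inhibitor were thus higher, while Serpine2, protease nexin-1, went from 1.34 to 0.0278, a log2 change of -3.49. Plat, the tissue-type activator, was at 24.4 and 13.5, within 2-fold, and Plg, plasminogen itself, was at 0.00701 and 0.

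**Figure D5:**
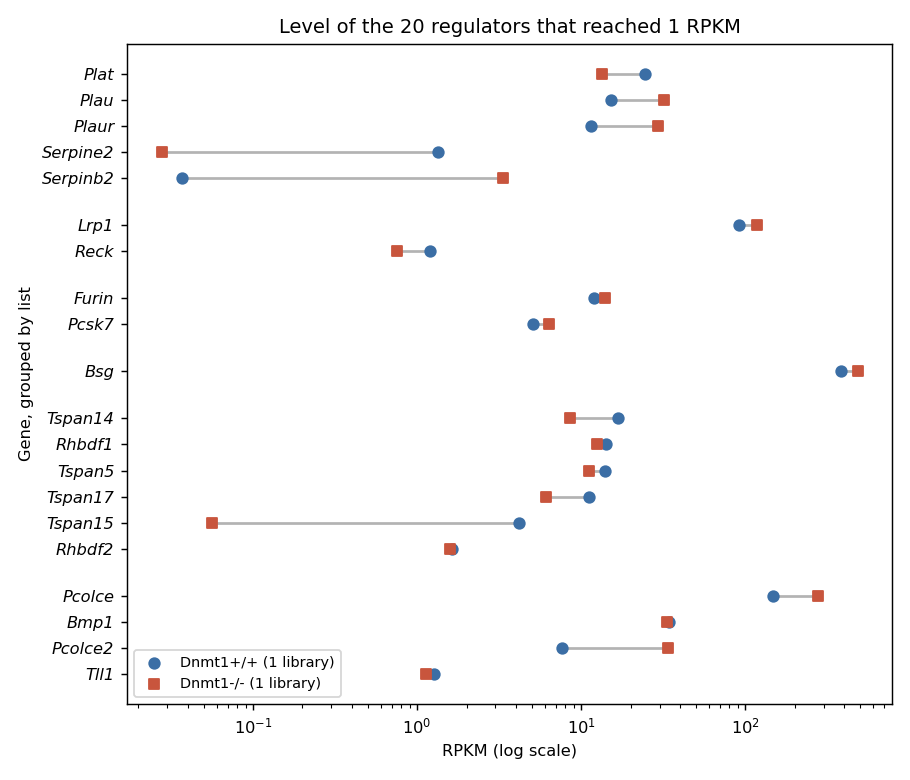
RPKM on a log axis of the 20 kept regulators, in Dnmt1+/+ (blue circles) and Dnmt1-/- (red squares), grouped from top to bottom as the plasminogen system, inhibitors and clearance, convertases, inducer, ADAM chaperones, and astacins with their enhancers. Serpinb2 moves from 0.0371 to 3.35, and Tspan15 from 4.20 to 0.0566.

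The kept genes for convertases, the inducer, and inhibition or clearance of MMPs stayed within 2-fold. Furin, the convertase that activates membrane-type MMPs and ADAMs, was at 12.0 and 14.0 RPKM, and Pcsk7 at 5.09 and 6.38. Bsg, the inducer known as EMMPRIN, was at 381.6 and 483.7, and Lrp1, an endocytic receptor for MMPs and TIMPs, at 91.1 and 117.1. Reck, a membrane-bound MMP inhibitor, was at 1.20 and 0.758. The tetraspanin Tspan15, a partner of Adam10, was more than 2-fold lower, from 4.20 to 0.0566 RPKM, a log2 change of -4.78. Its relatives Tspan5, Tspan14 and Tspan17 were at 13.9 and 11.1, at 16.7 and 8.49, and at 11.1 and 6.11. Their log2 changes of -0.32, -0.97 and -0.85 were within 2-fold, that of Tspan14 just short of it. The iRhom genes, which bring Adam17 to the cell surface, were at 14.1 and 12.4 RPKM for Rhbdf1 and at 1.64 and 1.58 for Rhbdf2. Bmp1, the procollagen C-proteinase, was at 34.4 and 33.3, and the genes of its enhancers were at 148.1 and 277.6 for Pcolce and at 7.61 and 33.6 for Pcolce2. Pcolce2, with a log2 change of 2.13, was the other gene of the list called higher, and Tll1, an astacin related to Bmp1, was at 1.27 and 1.13 RPKM. The 13 genes of the list that were not kept include Plg, and of the others Spock2 was at 0.563 and 0.160 RPKM, Pcsk6 at 0.209 and 0.0490 and Tspan33 at 0.0738 and 0.0820. Papln, Tspan10, Tll2 and Mep1a were listed at 0 in 1 library and were at 0.0530 RPKM or less in the other, and A2m, Spock1, Spock3, Pcsk5 and Mep1b were listed at 0 in both.

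All 80 entries are accounted for by 32 that were kept and 48 that were not. Of the 48, 23 were listed at 0 in both libraries, 5 in Dnmt1+/+ only and 5 in Dnmt1-/- only, and the highest RPKM among the 48 was 0.985. Of the 80, 25 had the status NOTEST, given where too few reads were found for a test. The called members nearest the threshold were Adam19 and Timp2 in the higher and Adamts9 and Adamts10 in the lower direction. The nearest that were not called were Adamtsl5 and Mmp14, with higher values, and Mmp28 and Mmp11, with lower values.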

How the data were processed

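Libraries for mRNA-seq, 1 per genotype, kept strand and were read as 50 bp single ends. The authors used TopHat on mm9, then Cufflinks, and took RPKM from Cuffdiff, and they deposited RPKM for each library and a status for each entry. Program versions and any scaling beyond mapped reads are not given in the sources used here, and the table gives no read counts. Members were matched by symbol. Changes were taken on log2(RPKM + 0.1) for entries with a symbol and status OK that reached 1 RPKM in a library, and more than 2-fold was called higher or lower. The rule matches names, but these families and the lists were chosen with earlier results of these data known. Named were the Timp genes, every member past 2-fold, the 10 highest, those nearest the threshold, and those at 0 in 1 library; the other members are named to account for each. Alternatives were pseudocounts of 1 and 0.01, no filter, a mean RPKM of at least 1, median subtraction, joint entries left out, every status, and a 1.5-fold threshold. Positions and overlaps are from GENCODE on NCBIM37 (mm9), where all 80 members were placed, and promoters from RefSeq on GRCm38.p6, where 50 matched. A further regulator, outside the list of 33, is not reported here. The calling step was tested on simulated data with Dnmt1+/+ levels of at least 1 RPKM and planted changes well past 2-fold. That test therefore did not cover calls near the threshold or levels under 1 RPKM in Dnmt1+/+. Python 3.11.15, numpy 2.4.6, pandas 2.3.3 and matplotlib 3.10.9 were used.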

Additional observations from a re-analysis of the deposited data

How the results depend on the processing

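With 1 library per genotype no replicate could be left out, and the table gives no reads behind a value. Of the 7 members higher and 11 lower, a pseudocount of 1 RPKM left 7 higher and 7 lower, beside 6.96% and 7.12% of all genes, and without the filter on low RPKM there were 12 higher and 14 lower among 55 members, beside 9.92% and 11.1% of all genes. The median change of the members was -0.28. It was 0.072 without the filter, where the median of all genes was -0.086, and -0.14 after the median of all genes was subtracted, by construction. Across the other 2-fold alternatives, except the one on overlapping exons, 6 to 8 of 29 or 32 members were higher and 9 to 12 lower. The shares of all genes beside these were 7.43 to 9.71% and 8.58 to 11.4%. A 1.5-fold threshold gave 8 and 13, beside 14.1% and 23.7%. Leaving out members whose exons overlap another annotated gene left 23, of which 5 were higher and 9 lower. The shares beside that alternative were 8.47% and 10.9% of all genes, from which overlapping genes were not left out. That alternative was chosen after seeing the data, as were those for the ratio of summed Timp to summed Mmp RPKM, which was 2.74 to 4.57-fold higher in Dnmt1-/- MEFs. No alternative could change the direction of a called member, so direction is no check on the calls. With a pseudocount of 1 RPKM, Adamts6, Adamts7, Adamts9 and Adamts10 lost their call. Adamts9 also lost it when the median of all genes was subtracted.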
